A study of Mus musculus with 6 samples.

Results

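Genes of RasGRP, diacylglycerol and calmodulin signalling were examined in cells of the mouse at the early LPre-B stage of B cell development. The group holds 9 genes of the 13426 in the table, namely the calmodulin-binding protein gene *Nrgn*, the exchange factor genes *Rasgrp1*, *Rasgrp2* and *Rasgrp3*, the diacylglycerol kinase genes *Dgka* and *Dgkz*, the phospholipase gene *Plcg2* and the protein kinase C genes *Prkcb* and *Prkcd*. They were picked by symbol, through the Entrez ID of each row, and all 9 had a row above the low-value filter of the deposited table. Values of the same comparison of groups were known when they were picked, so their differences between groups are given here as a description. Where the 9 are sorted by the threshold that was used for all genes, this shows them beside the rest of the table and supports nothing.

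Early large pre-B, or early LPre-B, cells are bone marrow progenitors of B cells that carry B220 and CD43 and had been sorted without lineage markers, surface IgM or CD2. Ctrl mice were *Upf1* Flox/Flox and *Mb1* +/+, and Upf1-cKO mice were *Upf1* Flox/Flox and *Mb1* Cre/+. RNA of 3 libraries per group was sequenced, from adult, age-matched mice of a C57BL/6 background. Mice of both groups carried the floxed *Upf1* alleles, whereas Cre recombinase, expressed from the *Mb1* (*Cd79a*) locus in B lineage cells, was present in Upf1-cKO mice alone, so that effects of Cre and of the loss of UPF1 cannot be told apart.

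UPF1 is an RNA helicase required for nonsense-mediated mRNA decay. In B cell progenitors, kinases below the pre-B cell receptor activate phospholipase C gamma, which splits a membrane phosphoinositide into diacylglycerol and IP3. Diacylglycerol recruits RasGRP exchange factors, which load Ras or Rap GTPases with GTP, and protein kinase C, whereas diacylglycerol kinases turn it into phosphatidic acid. IP3 releases calcium from internal stores, calcium loads calmodulin, and neurogranin, the product of *Nrgn*, holds calmodulin in its calcium-free form.

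The deposited values are called normalised reads, that is, reads divided by an effective library size and given per 1e6 reads. Between 9732498 and 11006834 reads were recovered per library, and 1 read was worth 0.0843 to 0.106 normalised reads. *Upf1* itself had normalised read counts of 260, 203 and 259 in Ctrl libraries 1, 2 and 3, and of 308, 283 and 299.7 in the libraries labelled cKO, with a log2 fold change of 0.31 (limma, adjusted p = 6.96e-03), a call that was lost in 2 of 16 settings. Because its row adds up reads from all exons, those flanked by loxP sites cannot be read apart from the others, and the value checks nothing about their removal. These libraries are therefore called cKO-labelled below. *Cd79a*, the locus that carries Cre, had 221 ± 11.4 (SD, n = 3) normalised reads in Ctrl and 73.3 ± 1.85 (SD, n = 3) in cKO-labelled libraries.

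Markers of other cell types and stages were read before the genes of interest. The 11 B lineage markers summed to between 2445 and 2672 normalised reads in Ctrl and between 2575 and 2745 in cKO-labelled libraries, but 5 of them rose and 2 fell. The recombinase genes *Rag1* (71.4 ± 15.3 in Ctrl and 208 ± 13.5 in the other group) and *Rag2* (29.0 ± 1.14 and 66.2 ± 5.03) were among those that rose, and *Cd79a* and *Ptprc* (277 ± 1.44 and 154 ± 5.59; SD, n = 3 each), which encodes CD45 and its form B220, fell. All 5 markers of the later pre-B stage (*Il2ra*, *Cd2*, *Cd22*, *Irf4* and *Ikzf3*) fell, and their sum was 992.6 to 1016 in Ctrl and 173 to 197 in cKO-labelled libraries. Of the 8 neutrophil markers, 4 rose and 0 fell, with sums of 122.6, 17.9 and 14.0 in Ctrl libraries 1, 2 and 3 and of 329 to 462 in cKO-labelled libraries. In bulk RNA, fewer cells of a type and less RNA per cell cannot be told apart.

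Promoter windows are shown for the genes with the largest differences between groups, *Nrgn* and *Rasgrp1* in the downward direction and *Rasgrp2* in the upward direction. Each holds the 250 bases before the annotated start and the 50 bases from it, 5′ to 3′ on the strand of the gene, as given by RefSeq for GRCm38.p6. *Nrgn* spans chromosome 9 from 37544493 to 37552745 on the minus strand, and its window is chr9:37552696-37552995. *Rasgrp1* spans chromosome 2 from 117279983 to 117342877 on the minus strand, with its window at chr2:117342828-117343127. *Rasgrp2* spans chromosome 19 from 6398957 to 6415216 on the plus strand and has 2 windows, at chr19:6399625-6399924 and chr19:6401455-6401754. Capitals mark the matches, on either strand, to the 6 short motifs spelled out after the sequences.
Nrgn: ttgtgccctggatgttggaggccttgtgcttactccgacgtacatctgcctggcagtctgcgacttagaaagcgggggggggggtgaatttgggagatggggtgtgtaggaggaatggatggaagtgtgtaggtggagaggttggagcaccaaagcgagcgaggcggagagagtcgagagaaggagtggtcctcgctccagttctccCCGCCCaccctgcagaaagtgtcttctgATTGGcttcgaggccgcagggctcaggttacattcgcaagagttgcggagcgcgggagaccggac
Rasgrp1: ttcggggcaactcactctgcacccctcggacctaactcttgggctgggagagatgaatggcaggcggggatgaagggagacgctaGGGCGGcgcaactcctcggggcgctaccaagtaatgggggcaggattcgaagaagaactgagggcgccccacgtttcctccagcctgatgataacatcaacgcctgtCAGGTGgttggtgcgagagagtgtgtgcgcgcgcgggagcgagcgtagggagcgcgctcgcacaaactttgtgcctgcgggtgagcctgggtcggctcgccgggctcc
Rasgrp2, first window: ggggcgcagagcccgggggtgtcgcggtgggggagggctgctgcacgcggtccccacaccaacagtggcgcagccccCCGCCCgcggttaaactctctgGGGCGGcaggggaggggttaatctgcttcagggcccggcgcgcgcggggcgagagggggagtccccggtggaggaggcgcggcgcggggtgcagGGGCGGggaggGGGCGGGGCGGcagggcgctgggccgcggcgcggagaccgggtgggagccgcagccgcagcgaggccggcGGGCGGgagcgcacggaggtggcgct
Rasgrp2, second window: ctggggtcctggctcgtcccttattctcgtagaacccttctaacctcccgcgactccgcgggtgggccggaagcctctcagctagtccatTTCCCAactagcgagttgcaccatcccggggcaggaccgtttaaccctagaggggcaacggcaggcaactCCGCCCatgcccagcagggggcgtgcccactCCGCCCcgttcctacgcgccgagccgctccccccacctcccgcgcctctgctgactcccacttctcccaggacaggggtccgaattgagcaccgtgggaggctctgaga
The *Nrgn* window held a CCAAT box that began 15 bases before the start and a GC box that began 43 bases before it. The *Rasgrp1* window held an E-box that began 58 bases before the start and a GC box that began 165 bases before it. The first *Rasgrp2* window was 80% G and C and held 6 GC boxes, of which a pair overlaps by 1 base, and the second held 1 Ikaros family core and 2 GC boxes. A GC box, spelled GGGCGG, was found in 12 of the 16 windows of the 9 genes and in 60.8% of the 12877 windows of all genes of the table that have one. The E-box searched, spelled CAGGTG, was found in 4 of the 16 windows of these genes and in 18.1% of all windows. A CCAAT box was found in 2 of the 16 windows and in 37.9% of all windows. The Ikaros family core, spelled TGGGAA, was found in 3 of the 16 windows and in 23.3% of all windows. A TATA box with the letters TATAAA was found in 3 of the 16 windows, none of them shown here, and in 7.42% of all windows. The AP-1 site, with the letters TGANTCA, was found in 0 of the 16 windows and in 4.89% of all windows. These matches describe the letters of the windows and not binding.

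Of the 9 genes, *Nrgn*, *Rasgrp1* and *Rasgrp3* were past the threshold in the lower direction, *Rasgrp2* and *Dgka* in the higher direction, and *Dgkz*, *Plcg2*, *Prkcb* and *Prkcd* in neither. The threshold was a limma adjusted p below 0.05, and it was passed by 52.7% of all genes of the table, 25.0% lower and 27.7% higher. Libraries of the 2 groups did not overlap for 4 of the genes in the lower direction (the 3 named and *Prkcb*) and for *Rasgrp2* and *Dgka* in the higher direction. Such separation was seen in 28.0% of all genes in the lower and 30.9% in the higher direction. The median log2 fold change of the 9 genes was -0.098, against 0.010 over all genes. Nothing is read from these counts, since the genes were chosen on this comparison.

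**Figure D1:**
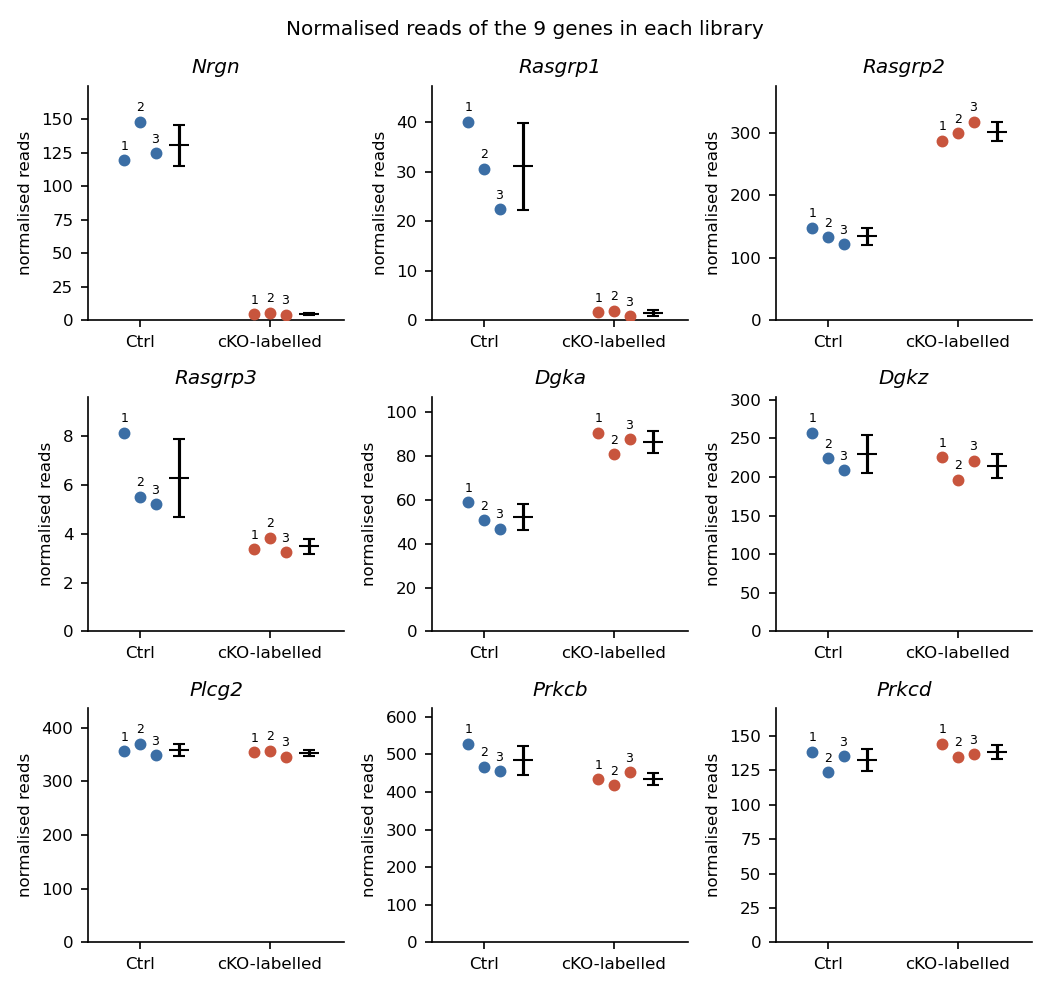
Normalised reads (vertical axes, each starting at 0) of the 9 genes in each of 3 Ctrl and 3 cKO-labelled libraries, with replicate numbers above the points and the group mean ± SD as bars. *Nrgn* lay between 119 and 148 in Ctrl and between 4.26 and 5.64 in cKO-labelled libraries, whereas the groups of *Plcg2* overlapped.

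Neurogranin transcripts had the lowest log2 fold change of the table on the log2(value + 1) scale. *Nrgn* had 119, 148 and 125 normalised reads in Ctrl libraries 1, 2 and 3, and 4.44, 5.64 and 4.26 in cKO-labelled libraries 1, 2 and 3. The lowest Ctrl library stood above the highest cKO-labelled library by a wide margin, and the spread within each group was small beside the gap. The means were 131 ± 15.3 and 4.78 ± 0.748 (SD, n = 3 each), a ratio of 27.3. On the log2(value + 1) scale the difference was -4.51 (SE 0.125), which ranked 1 from the bottom of 13426 genes. The order depends on this scale, since *Myzap*, a low gene described below, had a larger ratio of means of 44.3. Counts behind these values were 1122 to 1465 reads in Ctrl and 45 to 62 in cKO-labelled libraries. A log2 fold change of -2 or lower with an adjusted p below 0.05 was found in 0.492% of all genes (66 genes).

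Calmodulin is the binding partner of neurogranin, and *Calm2* and *Calm3* encode the same calmodulin protein from separate loci. Both fell, and did so under every scaling tried. *Calm2* had 342, 349 and 408 normalised reads in Ctrl and 233, 258.5 and 240.3 in cKO-labelled libraries, a log2 fold change of -0.58 (SE 0.080, limma adjusted p = 7.63e-06). *Calm3* had 655, 682 and 624 in Ctrl and 381, 375 and 384 in cKO-labelled libraries, a log2 fold change of -0.78 (SE 0.068, limma adjusted p = 2.53e-08). The calmodulin genes have similar coding sequences, so the split of reads among them is uncertain and the sum of the pair is given as well. Per kilobase of the longest coding transcript, *Calm2* and *Calm3* together stood at 589.8 ± 20.7 in Ctrl libraries and 369 ± 9.18 in the cKO-labelled ones (SD, n = 3 each). On the same scale *Nrgn* amounted to between 14.0% and 17.3% of that sum in each Ctrl library, and to between 0.798% and 1.02% in each cKO-labelled library. This ratio is taken within a library, so the scaling between libraries does not enter it.

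*Pcp4l1*, the other small IQ protein gene with a row, was named after its values were seen. It rose from 3.45, 3.49 and 3.03 to 5.71, 7.62 and 7.38 normalised reads (log2 fold change 0.86, SE 0.189, limma adjusted p = 8.52e-04). Per kilobase, *Nrgn* stood at 89.9 ± 10.5 against 2.11 ± 0.162 for *Pcp4l1* in Ctrl libraries, and the order turned in cKO-labelled libraries, with 3.29 ± 0.515 for *Nrgn* and 4.38 ± 0.660 for *Pcp4l1* (SD, n = 3 each). Across libraries the values of the 2 genes overlapped there, with *Nrgn* up to 3.88 and *Pcp4l1* from 3.62. Within each cKO-labelled library *Pcp4l1* was the higher, with 54.2% to 61.5% of the summed level of the pair.

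RasGRP1 binds diacylglycerol through its C1 domain and activates Ras. *Rasgrp1* had 40.1, 30.7 and 22.5 normalised reads in Ctrl libraries 1, 2 and 3, and 1.61, 1.94 and 0.801 in the cKO-labelled ones. Ctrl libraries varied among themselves the most of the 9 genes relative to their mean, yet the lowest of them lay far above every cKO-labelled library. The means were 31.1 ± 8.81 and 1.45 ± 0.585 (SD, n = 3 each), a ratio of 21.4, and the log2 difference was -3.70 (SE 0.218), which ranked 4 from the bottom of the table. The cKO-labelled values rest on 16, 21 and 9 reads, against 226 to 377 reads in Ctrl libraries. With so few reads the added 1 of the log2 scale weighs on the difference, and it was -4.50 in DESeq2 on the recovered reads. The lower levels of *Nrgn* and *Rasgrp1* stood beside the fall of the 5 pre-B stage markers given above, whose part in them was not tested.

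RasGRP3 also binds diacylglycerol and acts on Ras and Rap, and its gene spans chromosome 17 from 75435870 to 75529054 (GRCm38.p6). *Rasgrp3* had 8.13, 5.51 and 5.21 normalised reads in Ctrl and 3.37, 3.83 and 3.25 in cKO-labelled libraries. Ctrl library 1 stood apart from the other Ctrl libraries, and the groups did not overlap. The means were 6.28 ± 1.60 and 3.481 ± 0.310 (SD, n = 3 each), a ratio of 1.80, with a log2 difference of -0.68 (SE 0.201). Without Ctrl library 1 the difference was -0.51, the smallest of 16 settings and the one in which *Rasgrp3* was not past the threshold used for all genes.

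RasGRP2, also called CalDAG-GEFI, acts on Rap and responds to calcium. *Rasgrp2* had 148, 133 and 122 normalised reads in Ctrl libraries and 287, 299.6 and 318 in cKO-labelled libraries. Every cKO-labelled library was thus above every Ctrl library, in the direction opposite to *Rasgrp1* and *Rasgrp3*. The means were 134 ± 13.2 and 301 ± 15.3 (SD, n = 3 each), a ratio of 2.24, with a log2 difference of 1.16 (SE 0.0823), which ranked 751 from the top of the table. Platelets are rich in this factor, and 1 of 5 megakaryocyte and platelet markers had a row, *Itga2b*, at 0.478 to 1.54 normalised reads in Ctrl and 1.14 to 2.21 in cKO-labelled libraries. *Pf4*, *Ppbp*, *Gp9* and *Gp1bb* had no row. The neutrophil marker sums were higher in cKO-labelled libraries, as *Rasgrp2* was, and Ctrl library 1 had both the highest such sum (122.6) and the highest *Rasgrp2* level (148) among Ctrl libraries. In cKO-labelled libraries 1, 2 and 3 the order was the reverse, with neutrophil marker sums of 462, 355 and 329 beside the *Rasgrp2* levels of 287, 299.6 and 318. Their part in the level of *Rasgrp2* was not tested. An antisense transcript, *Gm14965*, shares 265 bases (2.14%) of the exons of *Rasgrp2*, and counting had ignored strand.

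Levels of different genes are compared per kilobase of the longest coding transcript. Among RasGRP genes, *Rasgrp2* made up between 86.7% and 90.05% of the summed level per kilobase in each Ctrl library and between 98.2% and 98.7% in each cKO-labelled library. *Rasgrp1* made up 7.30% to 10.3% in Ctrl and 0.109% to 0.279% in cKO-labelled libraries. The shares depend on the length chosen, because the annotated exons of *Rasgrp2* cover 12384 bases in all and its longest coding transcript 2296. With the union of exons as the length, *Rasgrp1* made up 26.6% to 34.3% in Ctrl and 0.528% to 1.34% in cKO-labelled libraries, and *Rasgrp2* 57.3% to 65.2% and 92.9% to 94.7%. The order of the 2 genes was the same with either length. Within a library, the ratio of *Rasgrp2* to *Rasgrp1* per kilobase was 8.42, 9.86 and 12.3 in Ctrl libraries and 406, 352 and 903 in cKO-labelled libraries. *Rasgrp1* stood 3.89 to 5.03 times above *Rasgrp3* in Ctrl libraries and at 0.223 to 0.457 of it in cKO-labelled libraries. *Rasgrp4*, a mast cell and myeloid factor that was named after its values were seen, rose from 1.76 ± 0.783 to 5.01 ± 0.690 normalised reads (SD, n = 3 each; log2 fold change 1.16, limma adjusted p = 3.98e-04). Its rise stood beside the neutrophil marker sums given above, and their part in it was not tested.

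**Figure D2:**
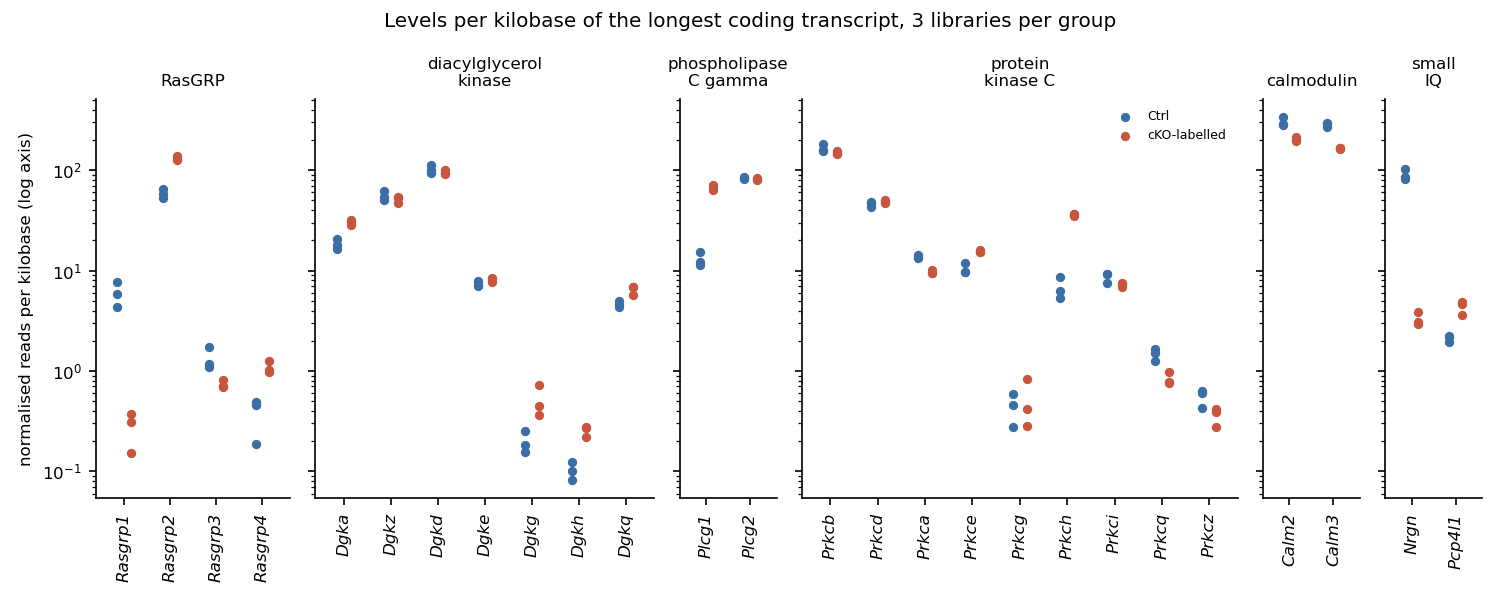
Normalised reads per kilobase of the longest coding transcript (log axis) for genes of the RasGRP, diacylglycerol kinase, phospholipase C gamma, protein kinase C, calmodulin and small IQ families, with 1 point for each of 3 Ctrl and 3 cKO-labelled libraries. *Rasgrp1* lay above *Rasgrp3* in Ctrl and below it in cKO-labelled libraries, and *Plcg1* lay closer to *Plcg2* in cKO-labelled libraries.

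Diacylglycerol kinases end diacylglycerol signals. *Dgka* spans chromosome 10 from 128720131 to 128745084 and *Dgkz* chromosome 2 from 91932822 to 91976443, both on the minus strand of GRCm38.p6. *Dgka*, whose product is activated by calcium, had 58.8, 50.7 and 46.8 normalised reads in Ctrl and 90.5, 80.6 and 87.5 in cKO-labelled libraries. The groups did not overlap, and the means were 52.1 ± 6.12 and 86.2 ± 5.06 (SD, n = 3 each), a ratio of 1.66 and a log2 difference of 0.72 (SE 0.0963). *Dgkz*, the zeta kinase that acts on the pool used by RasGRP1, had 257, 225 and 209 normalised reads in Ctrl and 226, 197 and 221 in cKO-labelled libraries. Its groups overlapped, with a log2 difference of -0.098 (SE 0.0861). Per kilobase *Dgkz* remained above *Dgka* in all 6 libraries, and the ratio of *Dgkz* to *Dgka* was 2.98 to 3.03 in Ctrl and 1.66 to 1.72 in cKO-labelled libraries. The 2 ranges of this ratio were narrow and did not overlap. The summed level of the 7 diacylglycerol kinase genes with a row was 188 ± 16.4 per kilobase in Ctrl libraries and 194 ± 9.65 in the cKO-labelled ones (SD, n = 3 each), with overlap. *Dgkd*, named after its values were seen, held the largest share of that sum, 53.0% to 56.1% in Ctrl and 48.2% to 50.6% in cKO-labelled libraries. Opposite-strand neighbours share 105 exonic bases with *Dgka* (*Pmel*) and 222 with *Dgkz* (*Gm9821*).

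Phospholipase C gamma 2 is the enzyme that makes diacylglycerol and IP3 below the B cell receptor, and its gene spans chromosome 8 from 117498275 to 117635142 on the plus strand of GRCm38.p6. *Plcg2* was the least variable of the 9 genes, with 356, 369.9 and 348 normalised reads in Ctrl and 354, 357 and 346 in cKO-labelled libraries. The groups overlapped and the log2 difference was -0.023 (SE 0.0687). *Plcg1*, its paralog and the chief form in T cells, rose from 77.7, 62.7 and 57.7 to 362, 325 and 355 normalised reads, a log2 fold change of 2.39 (SE 0.096, limma adjusted p = 9.94e-13). Per kilobase, *Plcg2* exceeded *Plcg1* by 5.44 to 7.17 times in Ctrl and by 1.16 to 1.30 times in cKO-labelled libraries. The share of *Plcg1* in the summed level of the pair was 12.2% to 15.5% in Ctrl and 43.4% to 46.3% in cKO-labelled libraries. With the union of exons as the length, that share was 8.31% to 10.7% in Ctrl and 33.3% to 35.9% in cKO-labelled libraries. The sum itself was 96.2 ± 3.35 per kilobase in Ctrl libraries and 149.9 ± 3.32 in the cKO-labelled ones (SD, n = 3 each). Of 8 T cell markers 3 had a row (*Lat*, *Zap70* and *Cd5*), of which 2 fell and 0 rose, and their sum was 34.7 to 45.4 normalised reads in Ctrl and 15.2 to 20.4 in cKO-labelled libraries. *Cd3e*, *Cd3d*, *Cd3g*, *Cd4* and *Cd8a* had no row. The fall of *Lat* and *Zap70* stood beside that of the pre-B stage markers given above. The part of T cells in the level of *Plcg1* was not tested.

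Protein kinase C beta couples the B cell receptor to NF-κB. *Prkcb* spans chromosome 7 from 122289104 to 122634402 and *Prkcd* chromosome 14 from 30595353 to 30626414 (GRCm38.p6). *Prkcb* had 528, 467 and 456 normalised reads in Ctrl and 434, 419 and 452 in cKO-labelled libraries. The groups were separated by the small step from 452 to 456, and the log2 difference was -0.15 (SE 0.0745). Protein kinase C delta responds to diacylglycerol without calcium and restrains B cell activation. *Prkcd* had 138, 124 and 135 normalised reads in Ctrl and 144, 135 and 137 in cKO-labelled libraries, with overlap and a log2 difference of 0.066 (SE 0.0781). Per kilobase *Prkcb* was the leading gene of its family in all 6 libraries, with 64.1% to 66.5% of the summed level in Ctrl and 55.1% to 56.5% in cKO-labelled libraries. *Prkcd* held 17.6% to 19.4% and 17.5% to 18.7%. *Prkch*, encoding the eta form, rose from 22.04, 30.6 and 18.7 to 130.2, 124 and 131 normalised reads (log2 fold change 2.41, SE 0.136, limma adjusted p = 2.96e-09). Its share of the family was 2.16% to 3.49% in Ctrl and 13.4% to 13.6% in cKO-labelled libraries. With the union of exons as the length, *Prkcb* held 51.0% to 53.7% in Ctrl and 43.7% to 45.1% in cKO-labelled libraries.

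Ordered by level per kilobase in Ctrl libraries, the 9 genes ran from *Prkcb* (166 ± 13.4) through *Nrgn* (89.9 ± 10.5), *Plcg2* (83.3 ± 2.55), *Rasgrp2* (58.5 ± 5.77), *Dgkz* (55.2 ± 5.96), *Prkcd* (46.4 ± 2.73), *Dgka* (18.4 ± 2.16) and *Rasgrp1* (5.94 ± 1.69) to *Rasgrp3* (1.33 ± 0.340; SD, n = 3 each). Neighbours whose libraries overlapped were *Nrgn* with *Plcg2* and *Rasgrp2* with *Dgkz*. In cKO-labelled libraries *Prkcb* (149 ± 5.70) and *Rasgrp2* (131 ± 6.67) led, followed by *Plcg2* (82.0 ± 1.33), *Dgkz* (51.5 ± 3.78), *Prkcd* (48.6 ± 1.76) and *Dgka* (30.4 ± 1.78). *Nrgn* (3.29 ± 0.515), *Rasgrp3* (0.738 ± 0.0656) and *Rasgrp1* (0.277 ± 0.112) closed that order (SD, n = 3 each). There, *Dgkz* overlapped with *Prkcd*. The order depends on the length chosen. With the union of exons as the length, *Nrgn* (89.9 ± 10.5) and *Plcg2* (83.3 ± 2.55) came before *Prkcb* (63.2 ± 5.09) in Ctrl libraries, and *Plcg2* (82.0 ± 1.33) before *Prkcb* (56.8 ± 2.17) in the cKO-labelled ones (SD, n = 3 each). *Rasgrp2* also took a lower place, at 10.8 ± 1.07 in Ctrl libraries and 24.3 ± 1.24 in the cKO-labelled ones, beside *Dgka* at 10.9 ± 1.28 and 18.1 ± 1.06 (SD, n = 3 each).

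**Figure D3:**
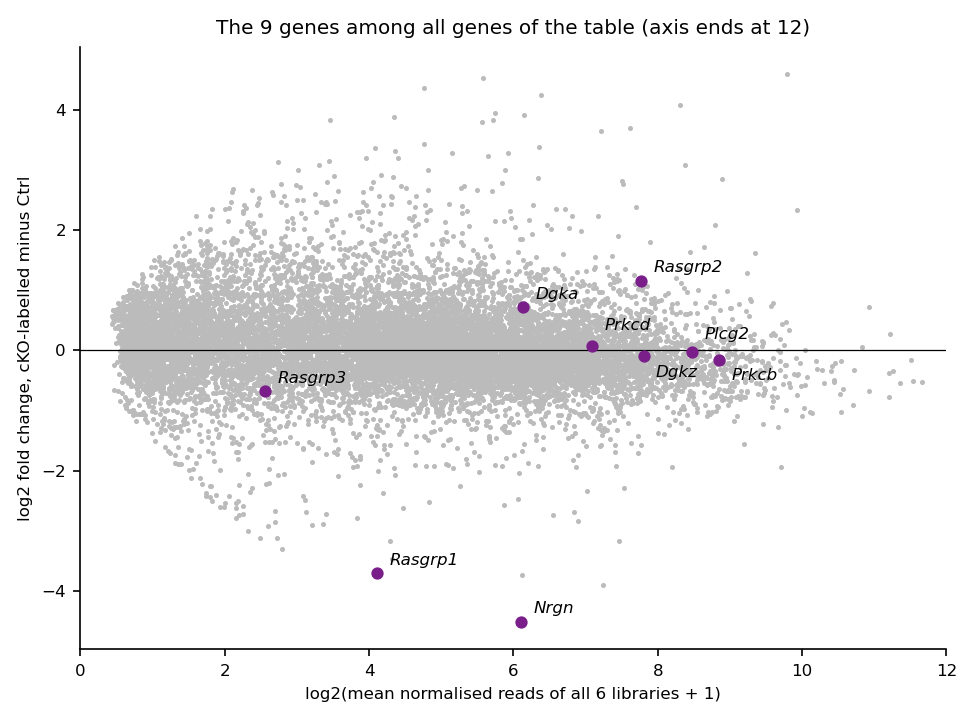
Log2 fold change (cKO-labelled minus Ctrl, vertical axis) against the log2 of the mean normalised reads plus 1 over all 6 libraries (horizontal axis, drawn up to 12) for every gene of the table in grey, with the 9 genes in purple. *Nrgn* at -4.51 was the lowest point, *Rasgrp1* lay at -3.70, and *Prkcb*, *Plcg2*, *Dgkz* and *Prkcd* lay close to 0.

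The genes whose 6 values were nearest to those of *Nrgn* and *Rasgrp1* were sought among 11996 named genes. Nearness was the root mean square difference over the 6 libraries of log2(value + 1), after the Ctrl mean of each gene was subtracted. For *Nrgn* the nearest were *Myl4* (0.458), *Fcrla* (0.626) and *Rasgrp1* (0.646), and for *Rasgrp1* they were *Myl4* (0.334), *Fcrla* (0.340) and *Myzap* (0.435). *Myl4*, a myosin light chain gene, had 299.8, 289 and 259.8 normalised reads in Ctrl and 16.2, 18.8 and 19.1 in cKO-labelled libraries. *Fcrla*, an Fc receptor-like gene of B cells, had 151, 114 and 119.6 in Ctrl and 9.81, 7.08 and 9.06 in cKO-labelled libraries. *Myl4* and *Fcrla* ranked 2 and 3 from the bottom of the table by log2 fold change, between *Nrgn* and *Rasgrp1*. *Myzap* had 120, 87 and 131 reads in Ctrl and 3, 3 and 1 in cKO-labelled libraries, so its distance rests on few reads. The 6 libraries fall into the groups of the study, so that nearness here mostly measures a like difference between groups.

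The rest of the pathway was read from 5 lists of other genes, of which 203 of 227 had a row. In all, 64 fell and 64 rose, or 63.05% past the threshold beside 52.7% of all genes. The even split belongs to the scaling used, since 33 fell and 91 rose with libraries scaled to total reads, and 77 fell and 52 rose under median centring. Of the Ras and ERK list 17 fell and 16 rose of 50, of the phospholipase C and phosphoinositide list 15 fell and 16 rose of 45, and of the diacylglycerol turnover list 6 fell and 6 rose of 29. Of the diacylglycerol effector list 11 fell and 9 rose of 36, and of the calmodulin and calcium list 15 fell and 17 rose of 43. Medians of log2 fold change were 0.059, 0.030, 0.10, 0.012 and 0.074, against 0.010 over all genes. Both directions were thus found in each list.

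**Figure D4:**
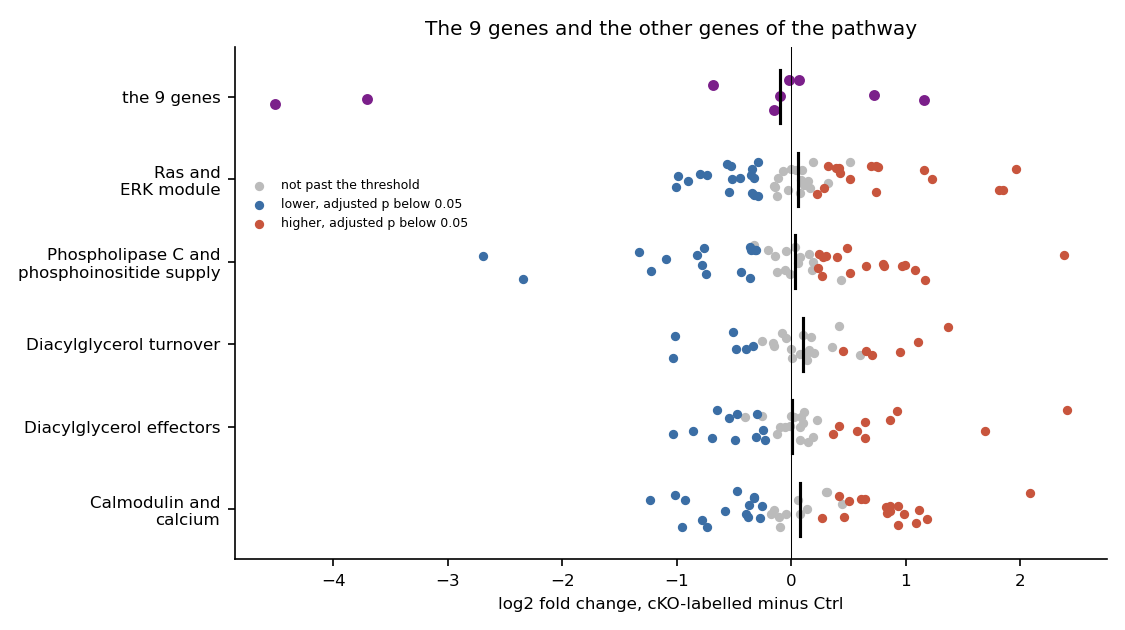
Log2 fold change (cKO-labelled minus Ctrl, horizontal axis) of the 9 genes in purple and of the other genes of 5 lists, with 1 point per gene, coloured where the limma adjusted p was below 0.05, and with the median of each list as a vertical bar. The 5 medians lay between 0.012 and 0.10, and *Nrgn* and *Rasgrp1* lay below every gene of the lists, of which *Plcd3* was lowest at -2.69.

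Among the GTPases that RasGRP factors load, *Nras* fell (log2 fold change -0.32, SE 0.077, limma adjusted p = 1.87e-03), though not past the threshold with libraries scaled to total reads (-0.12, limma adjusted p = 0.226), and *Rap1a* fell from 90.03, 102 and 123.2 to 54.0, 49.7 and 50.03 normalised reads (-1.01, SE 0.103, limma adjusted p = 1.76e-07). *Hras* rose by 0.29 (SE 0.11, limma adjusted p = 0.0338), a call that was lost in 8 of 16 settings. *Rras2*, named after its values were seen, rose from 46.4 ± 2.13 to 110 ± 5.83 normalised reads (SD, n = 3 each; 1.23, limma adjusted p = 1.45e-09). Of the 10 Ras and Rap GTPase genes with a row 5 fell and 4 rose (3 and 4 with libraries scaled to total reads). Of the other Ras exchange factor genes of lymphocytes, *Sos1* did not pass the test (0.097, SE 0.091, limma adjusted p = 0.385) and *Sos2* fell (-0.34, SE 0.103, limma adjusted p = 9.23e-03). With libraries scaled to total reads the calls changed places, with *Sos1* higher (0.30, limma adjusted p = 0.0172) and *Sos2* not past the threshold (-0.14, limma adjusted p = 0.287). *Sos2* also missed it without cKO-labelled library 2 (-0.28, limma adjusted p = 0.0637). Of the 13 genes for GTPase-activating proteins, which switch Ras and Rap off, 7 rose and 2 fell (9 and 1 with libraries scaled to total reads). Among the rises were *Dab2ip* from 29.4 ± 4.83 to 108 ± 7.29 and *Rap1gap2* from 1.01 ± 0.518 to 5.89 ± 0.236 normalised reads (SD, n = 3 each). Of the 11 genes for RAF, MEK, ERK and their scaffolds 6 fell and 2 rose, but 2 fell and 4 rose when libraries were scaled to total reads. The feedback inhibitor gene *Spry4* fell by 0.99 on the log2 scale, on 15 to 22 reads in Ctrl and 0 to 14 in cKO-labelled libraries. The scaffold gene *Ksr2* fell by 0.90, on 9 to 14 reads and 0 to 7 reads.

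Upstream of phospholipase C gamma, 7 of 11 kinase and adaptor genes fell and 2 rose (5 and 3 with libraries scaled to total reads). *Blk*, a Src family kinase of B cells, fell from 216 ± 14.7 to 42.0 ± 4.97 normalised reads (log2 fold change -2.34, limma adjusted p = 7.93e-13). *Syk* fell from 752 ± 103 to 434.5 ± 11.4 (-0.78, limma adjusted p = 3.52e-07), whereas *Btk* stood at 128.5 ± 8.62 and 133.8 ± 2.61 without passing the test (0.059, limma adjusted p = 0.548), but passed it when scaled to total reads (0.26, limma adjusted p = 0.0123). The adaptor *Blnk* rose from 130 ± 15.5 to 205 ± 16.4 (0.66, limma adjusted p = 7.39e-06; SD, n = 3 for each mean). Of the 10 other phospholipase C genes 5 rose and 3 fell. Beside *Plcg1*, the largest rises were *Plcb4* (1.17) and *Plch1* (1.08), both at low levels of at most 11.3 and 1.98 normalised reads. The falls were led by *Plcd3*, from 15.5, 12.7 and 14.1 to 1.32, 1.04 and 1.64 normalised reads, and included *Plcl2*, an inactive relative, by 1.33 on the log2 scale.

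In diacylglycerol turnover, 4 of 5 lipase genes fell, among them *Mgll* (-1.01, limma adjusted p = 9.98e-05) and *Daglb* (-0.51, limma adjusted p = 7.13e-03), but 1 of 5 passed when libraries were scaled to total reads. *Daglb* also missed the threshold without cKO-labelled library 3 (-0.39, limma adjusted p = 0.0527). Sphingomyelin synthases, which release diacylglycerol, went apart, with *Sgms1* falling from 55.0 ± 5.78 to 26.5 ± 3.99 and *Sgms2* rising from 0.571 ± 0.394 to 3.03 ± 0.718 normalised reads (SD, n = 3 each). *Dgkh*, another diacylglycerol kinase gene, rose from 1.55 ± 0.314 to 3.91 ± 0.460, and *Plpp3*, a phosphatidate phosphatase gene, from 2.37 ± 0.424 to 6.30 ± 1.07 (SD, n = 3 each). Of the 5 other diacylglycerol kinase genes 3 rose and 0 fell.

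Among genes that act with or below protein kinase C, *Card9* (1.69) and *Card10* (0.92), which encode signalling scaffolds, rose, the former from 2.55 ± 0.803 to 10.3 ± 0.880 normalised reads (SD, n = 3 each) and the latter on at most 17 reads in a library. *Card9* is a myeloid gene, and its rise stood beside the neutrophil marker sums, whose part in it was not tested. *Phlpp2*, a phosphatase gene of the kinases that prime protein kinase C, fell (-0.69), as did *Chn2*, a Rac regulator gene with a diacylglycerol-binding C1 domain (-1.04).

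On the calcium side, pump genes moved in both directions. *Atp2a3*, which returns calcium to the endoplasmic reticulum, fell from 1066, 1002 and 881 to 441, 381 and 432 normalised reads (log2 fold change -1.23, SE 0.081, limma adjusted p = 7.35e-10). *Atp2b4*, a calmodulin-regulated pump of the plasma membrane, rose from 36.0, 31.3 and 31.3 to 139, 144 and 145 normalised reads (2.09, SE 0.088, limma adjusted p = 1.63e-12). Among other proteins that hold calmodulin, *Marcks* (-1.02) and *Marcksl1* (-0.95), substrates of protein kinase C, fell, whereas *Iqgap3* rose (1.11). Of 12 genes for calmodulin-dependent kinases and their inhibitors 6 rose and 1 fell (8 and 0 with libraries scaled to total reads), with *Camk1g* rising from 1.03 ± 0.337 to 3.69 ± 1.26 normalised reads (SD, n = 3 each). Of the 3 NFAT genes with a row 1 fell, but 0 with libraries scaled to total reads and 2 under median centring.

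The small differences turned sign with the scaling of libraries and the large ones did not. Over all genes the median log2 fold change was 0.010 as reported, 0.19 with libraries scaled to total reads and -0.098 with median centring. The unnamed row with the most reads took 16.4% to 23.8% of reads in Ctrl and 13.8% to 16.5% in cKO-labelled libraries. *Nrgn* ranged from -4.80 to -4.33 over 16 alternative settings, *Rasgrp1* from -4.50 to -3.50, *Rasgrp2* from 1.06 to 1.37, *Rasgrp3* from -0.87 to -0.51 and *Dgka* from 0.61 to 0.92. *Dgkz* ranged from -0.21 to 0.11, *Plcg2* from -0.13 to 0.18, *Prkcb* from -0.26 to 0.052 and *Prkcd* from -0.042 to 0.27, so the sign of each of these 4 turned with the setting.

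**Figure D5:**
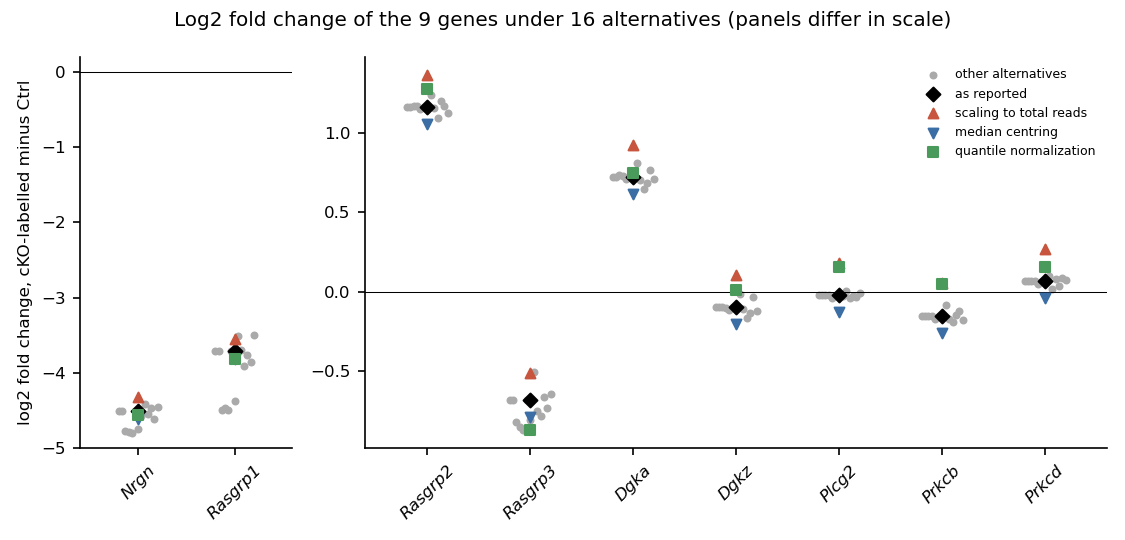
Log2 fold change (cKO-labelled minus Ctrl, vertical axes, which differ in scale between panels) of the 9 genes as reported and under 16 alternative settings, with 1 point per setting and separate symbols for 3 scalings. *Nrgn*, *Rasgrp1*, *Rasgrp2*, *Rasgrp3* and *Dgka* kept their sign in every setting, and the other 4 genes crossed 0.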

How the data were processed

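RNA was depleted of ribosomal RNA, and single-end reads were trimmed with cutadapt 4.0, mapped to mm10 (HISAT2) and assigned to genes by featureCounts 2.0.1 with strand ignored, per the labels and the methods of the study. The authors deposited a linear signal for 13426 genes in 6 libraries, which is the read number plus 0.5, over the effective size of the library in units of 1e6 reads. Whole reads were recovered from it for 99.9926% to 100% of values in each library (within 0.01 reads) and totalled 9732498 to 11006834 per library. Every row exceeded 0.5 in at least 3 libraries, so lower genes had been removed before deposition. The number of deposited reads per gene limits precision, and since no molecular identifiers were used, reads need not stand for separate molecules.

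RefSeq GRCm38.p6 annotation named 13008 rows, GENCODE M21 a further 3, and 415 had no name. Differences were fitted on log2(value + 1) by limma 3.58.1 under R 4.3.3 (trend and robust options on, no term but group), and p-values were adjusted by Benjamini-Hochberg across the 13426 genes. The added 1 understates the change of low genes. Standard errors (SE) are the moderated ones of limma, and p-values measure the spread between libraries, which were separate biological replicates per the study. The design had foreseen a linear table. As an alternative, edgeR 4.0.16 on the recovered reads called 3337 genes lower and 3645 higher, against 3351 and 3725 in limma. DESeq2 1.42.0, voom weights, other scalings, a pseudocount of 0.1, a minimum mean log2 value of 1 and fits without each library in turn were also tried. The code was tested on simulated data.

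The 9 genes, the 5 pathway lists and the marker lists were chosen with earlier results of these data known. Named genes were the 9, up to 3 genes per list and direction with the largest log2 fold change among those past an adjusted p of 0.05 without overlap of groups, their direct partners, *Upf1*, and the 3 genes nearest to *Nrgn* and *Rasgrp1*. Others are said to have been named after their values were seen. Some genes that this rule names are not reported here. The motifs searched and the use of the union of exons as a length were chosen after seeing the data. Levels per kilobase divide normalised reads by the longest coding GENCODE transcript.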

Additional observations from a re-analysis of the deposited data

How the results depend on the processing

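Of the named genes other than the 9, 634 values under alternative settings stayed on the same side of the threshold with the same sign, 15 kept the sign but no longer passed, 2 newly passed and 2 turned. Those that turned were *Sos1* (-0.011 under median centring) and *Btk* (-0.049 under median centring), neither of which had passed the test as reported. Replicates carry the numbers 1 to 3 in both groups, and same-numbered libraries also carry adjacent serial numbers in the deposited column names. Same-numbered libraries did not deviate together (r = 0.0893, -0.029 and -0.032). Such correlations, on 3 libraries per group, cannot decide whether the libraries were paired. With a replicate block the counts over all genes were 3321 lower and 3668 higher, and among the 9 genes 3 were lower and 2 higher. The block gave, lower and higher, 17 and 16 genes of the Ras and ERK list, 14 and 16 of the phospholipase C list, 5 and 7 of the turnover list, 11 and 9 of the effector list and 15 and 17 of the calmodulin and calcium list. Not every library correlated best with its own number.

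Median centring put 5 of the 9 genes past the threshold in the lower direction (3 as reported, with *Dgkz* and *Prkcb* added), and scaling to total reads put 4 in the higher direction (2 as reported, with *Plcg2* and *Prkcd* added). Scaling to total reads called 1936 genes lower and 5172 higher over the table, and median centring 4355 and 2992. Under total reads the genes lower were 8 in the Ras and ERK list, 9 in the phospholipase C list, 2 in the turnover list, 7 in the effector list and 7 in the calmodulin and calcium list, and the genes higher were 23, 20, 14, 14 and 20 in the same order.

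Leaving out 1 library gave 2 to 4 of the 9 genes lower and 2 to 2 higher. The count of 2 left out *Rasgrp3*, without Ctrl library 1, and the count of 4 took in *Prkcb*, without Ctrl library 3. As the 9 genes were chosen on this comparison, these counts describe them and test nothing. The ranges, lower and higher, were 15 to 17 and 10 to 15 for the Ras and ERK list, 14 to 15 and 11 to 16 for the phospholipase C list, 2 to 5 and 5 to 7 for the turnover list, 9 to 11 and 9 to 11 for the effector list, and 13 to 15 and 15 to 17 for the calmodulin and calcium list. The Ras and ERK list had 10 higher without Ctrl library 3 and 10 without cKO-labelled library 1, and the turnover list had 3 lower without Ctrl library 2 and 2 without cKO-labelled library 3. The cause was not tested. Depth limits *Rasgrp1*, *Rasgrp3* and the low genes of the lists, where a library held few reads.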

Other observations

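Other markers of development and of other cells were read with the same fit. Of 5 pro-B stage markers 3 rose and 2 fell (limma adjusted p below 0.05). *Kit* rose from 10.4, 9.04 and 6.70 to 37.0, 41.3 and 39.2 normalised reads, *Dntt* from 188, 188 and 135 to 494.5, 503.5 and 584, and *Flt3* from 2.39, 1.47 and 2.23 to 31.0, 29.6 and 28.9, whereas *Il7r* and *Cd93* fell. Their sum was 1120 to 1255 in Ctrl and 1304 to 1439 in cKO-labelled libraries. The 6 mature B cell markers summed to 90.5 to 94.8 and 86.7 to 101, and the 5 plasmacytoid dendritic cell markers to 293 to 321 and 325 to 356. Most of the latter sum came from *Irf8* (164 ± 9.40 and 155 ± 12.4) and *Tcf4* (135 ± 6.43 and 159 ± 9.31). *Siglech* (0.390 ± 0.231 and 0.797 ± 0.262) and *Ccr9* (1.54 ± 0.937 and 3.25 ± 0.356; SD, n = 3 each) were low in both groups. Plasma cell markers (3 of 4 with a row) summed to 28.5 to 40.3 and 14.0 to 18.2, monocyte and macrophage markers (4 of 6) to 56.8 to 89.6 and 76.4 to 104, erythroid markers (3 of 5) to 6.82 to 11.8 and 8.39 to 9.42, and natural killer cell markers (2 of 5) to 1.17 to 1.59 and 3.79 to 5.27.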
